A study of Mus musculus with 24 samples.

Results

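The 9 genes described here are read in the striatum, a forebrain nucleus that is part of the cerebrum and not of the cerebellum. They are the dopamine receptor genes Drd1 and Drd2, the adenosine receptor gene Adora2a, the peptide precursor genes Penk and Tac1, the signalling genes Ppp1r1b, Rgs9 and Pde10a, and Ano3. All 9 were found among the 54532 genes of the count tables. The first 8 were chosen by name, as genes of striatal projection neurons. Ano3, which encodes a membrane protein of the anoctamin family, was added because its level was far lower in mutant than in wild type cerebrum at postnatal day 75 (P75). Its values at P75 therefore describe that choice, and no test is given for them.

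Striatal projection neurons, also called medium spiny neurons, are the inhibitory output cells of the striatum and receive dense dopamine input from the midbrain. Neurons of the direct pathway carry the D1 dopamine receptor and make substance P from the Tac1 precursor, while neurons of the indirect pathway carry the D2 dopamine receptor and the A2a adenosine receptor and make enkephalin from the Penk precursor. Both classes hold the cAMP machinery that these receptors act on, including the phosphatase inhibitor DARPP-32 (encoded by Ppp1r1b), the cyclic nucleotide phosphodiesterase PDE10A (Pde10a) and RGS9, which speeds the turn-off of inhibitory G proteins (Rgs9).

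PolyA-enriched RNA was sequenced from C57BL/6J mice labelled Polr3a mutant or wild type, all of which were fed ad libitum and received tamoxifen at P28 to induce recombination. Polr3a codes for the largest subunit of the enzyme RNA polymerase III. Cerebrum was taken at P42 and P75, which is 14 and 47 days after tamoxifen, and cerebellum at P42, with 4 mutant and 4 wild type libraries each. The P42 groups held 2 males and 2 females, except the wild type cerebellum group with 3 males and 1 female, and all P75 libraries came from males. The labels do not say which allele the mutants carried, whether wild types carried a Cre transgene, or whether each library came from its own animal, so p-values measure the spread between libraries, which may be technical.

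Library totals ranged from 13832721 to 23175864 counts. The transcript level of the mutated gene does not separate the genotypes and so gives no check of the labels: Polr3a lay between 30.6 and 57.5 counts per 1000000 counts of the library (CPM) in the 12 mutant libraries and between 29.4 and 58.3 CPM in the 12 wild types. Cerebrum libraries at P42 differed within a genotype in the summed levels of regional marker genes, for which no cause was tested. The summed level of 8 striatal genes (all but Ano3) was 884, 1810, 261 and 1130 CPM in wild type replicates 1 to 4, and 1160, 406, 738 and 717 CPM in mutant replicates 1 to 4. At P75 it was 901, 915, 998 and 995 CPM in wild types and 641, 599, 983 and 921 CPM in mutants. Wild type replicates 2 and 3 at P42 thus stand apart at the high and the low end, while the P75 wild types lie close together. Most of this sum comes from Penk, Ppp1r1b and Pde10a. These averaged 74.1, 117 and 90.7 CPM in wild type cerebellum, which has no striatum, so the sum does not measure striatum alone. Markers of thalamus, hypothalamus and midbrain summed to 127 to 435 CPM in wild types at P42, to 716 and 726 CPM in mutant replicates 1 and 2, and to 1420 and 1280 CPM in mutant replicates 3 and 4. In those last 2 libraries markers of cortical excitatory neurons summed to 296 and 402 CPM, against 1200 to 2120 CPM in wild types.

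**Figure D1:**
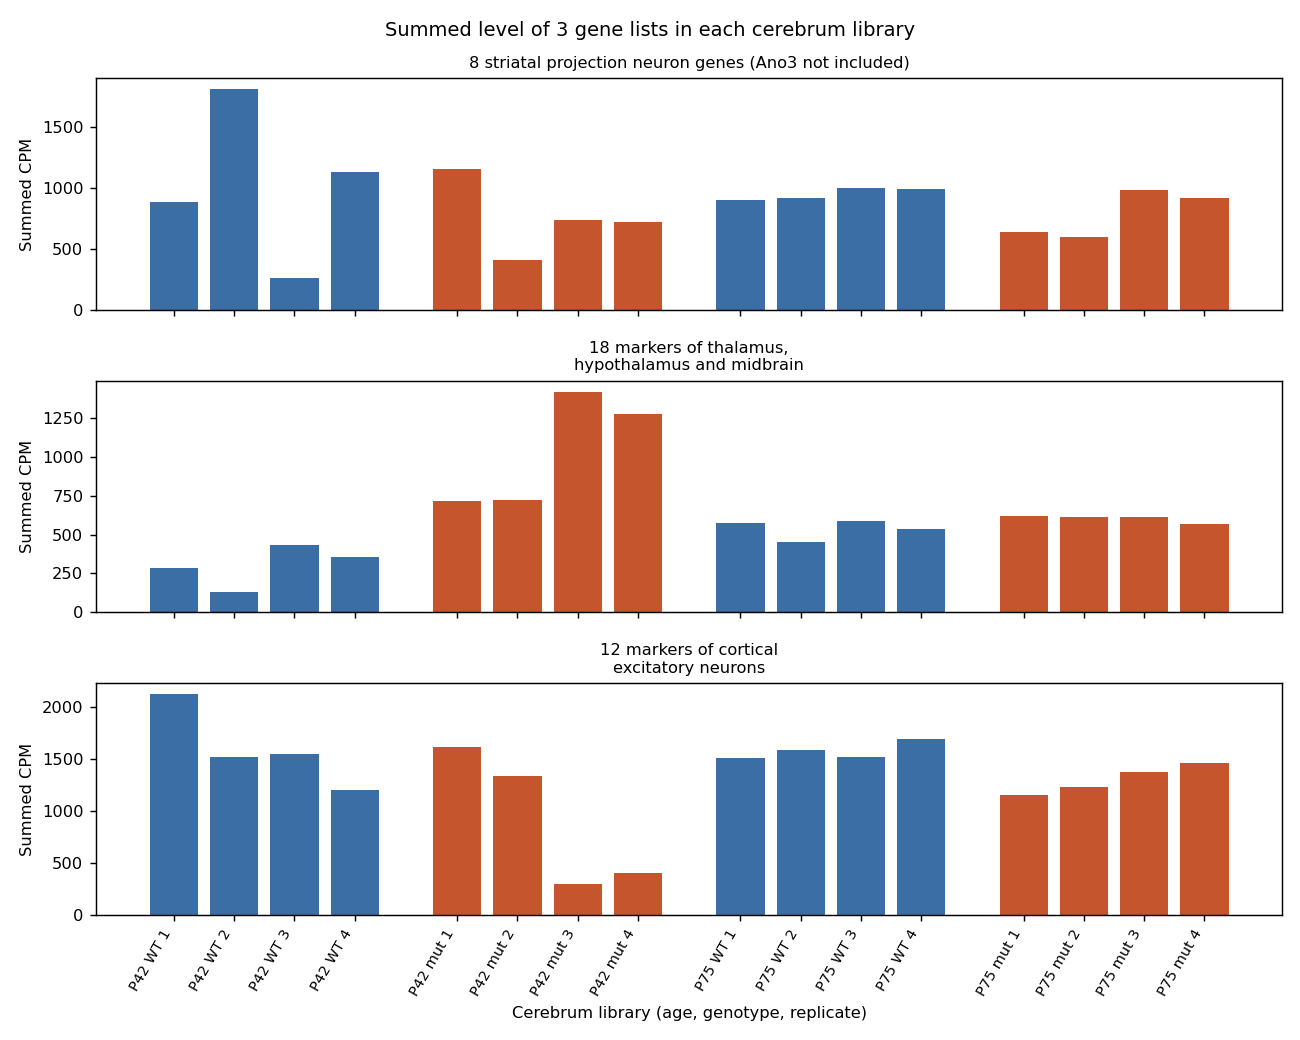
Bars give the summed CPM of a gene list in each of the 16 cerebrum libraries (blue, wild type; orange, mutant): 8 striatal genes without Ano3, 18 markers of deep regions and 12 markers of cortical excitatory neurons. The striatal sum spans 261 to 1810 CPM in P42 wild types and 901 to 998 CPM in P75 wild types, and mutant replicates 3 and 4 at P42 have the highest deep region and the lowest cortical sums.

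Wild type cerebrum was compared with wild type cerebellum at P42 to check the label of the genes. All 9 genes had a positive log2 fold change towards cerebrum, with a median of 2.45 against -0.03 over all 17964 genes tested, and 7 were called higher (edgeR quasi-likelihood test, Benjamini-Hochberg adjusted p under 0.05), where 16.4% of all genes were. Scaling by library size alone left 7 called, while the median of all genes became -0.15 and the share of higher genes among all calls went from 53.8% to 40.9%. Drd1 had 41.6 ± 28.8 CPM in cerebrum and 0.566 ± 0.140 CPM in cerebellum (SD, n = 4 each), a log2 fold change of 5.89 ± 0.57 (SE, adjusted p = 3.4e-05). Adora2a followed with 3.72 ± 0.68 (adjusted p = 0.00204) and Rgs9 with 3.34 ± 0.53 (adjusted p = 0.00087). Ano3 had 179 ± 70.1 and 39.5 ± 5.08 CPM and a log2 difference of 2.14 ± 0.27 (adjusted p = 0.000204). Penk (1.17 ± 0.44, adjusted p = 0.0688) and Ppp1r1b (0.61 ± 0.44, adjusted p = 0.328) did not pass. The number called ran from 6 to 9 over the alternatives. Pde10a lost its call without cerebrum replicate 1 (adjusted p = 0.0806) or cerebellum replicate 4 (0.0511). Without cerebrum replicate 3, which has the lowest striatal sum, Penk (0.00437) and Ppp1r1b (0.0455) were called too, and Penk also without cerebellum replicate 3 (0.0425). Penk and Ppp1r1b were also detected in cerebellum, at 74.1 ± 18 and 117 ± 15.2 CPM. In 5 of the 9 genes (Drd1, Drd2, Tac1, Rgs9 and Ano3) every cerebrum library lay above every cerebellum library, which held for 14.8% of all genes. For the others, cerebrum replicate 3 reached cerebellar levels. Its Adora2a (3.01 CPM) and Pde10a (85.9 CPM) lay within the cerebellum ranges of 1.98 to 3.51 and 79.2 to 102 CPM. Its Penk (55.7 CPM) and Ppp1r1b (54.6 CPM) lay below every cerebellum library.

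Levels of different genes were compared per kilobase of gene model in wild type cerebrum at P75. Penk stood highest with 124 ± 12.8 CPM per kilobase, followed by Ppp1r1b with 78.7 ± 10.8. The other 7 lay between 11.3 and 20.9, in the order Pde10a (20.9 ± 2.5), Ano3 (18.9 ± 3.84), Adora2a (16.4 ± 1.39), Drd2 (16.1 ± 1.21), Tac1 (13.1 ± 1.18), Rgs9 (11.7 ± 0.364) and Drd1 (11.3 ± 0.0646). Adora2a and Drd2, the receptors of the indirect pathway, did not differ beyond their spread, nor did Pde10a and Ano3, while Drd2 lay above Drd1 in every library of this group.

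Promoter sequences are shown for Drd2, which fell at P75, for Drd1 and Tac1, which did not pass the test there, and for Ano3, which was chosen from that comparison. Each is the 250 bases before a RefSeq transcript start in GRCm38.p6, printed 5′ to 3′ on the strand of the gene. RefSeq starts were matched for 6 of the 9 genes, with 9 promoters in all; Penk, Adora2a and Ppp1r1b had none. Capitals mark matches, on either strand, to the core TGACG of the cAMP response element (CRE) and to the GC box GGGCGG.
Drd2, chr9:49340153-49340402, plus strand: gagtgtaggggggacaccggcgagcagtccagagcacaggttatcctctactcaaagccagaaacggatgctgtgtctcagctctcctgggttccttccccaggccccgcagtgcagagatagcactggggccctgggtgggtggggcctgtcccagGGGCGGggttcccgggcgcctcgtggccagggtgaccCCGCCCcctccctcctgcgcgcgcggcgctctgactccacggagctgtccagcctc
Drd1, chr13:54055659-54055908, minus strand: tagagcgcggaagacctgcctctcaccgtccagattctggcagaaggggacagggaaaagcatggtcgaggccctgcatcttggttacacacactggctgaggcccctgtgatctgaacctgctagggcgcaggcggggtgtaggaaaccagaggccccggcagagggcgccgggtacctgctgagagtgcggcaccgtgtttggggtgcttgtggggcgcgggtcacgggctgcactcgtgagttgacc
Tac1, chr6:7554811-7555060, plus strand: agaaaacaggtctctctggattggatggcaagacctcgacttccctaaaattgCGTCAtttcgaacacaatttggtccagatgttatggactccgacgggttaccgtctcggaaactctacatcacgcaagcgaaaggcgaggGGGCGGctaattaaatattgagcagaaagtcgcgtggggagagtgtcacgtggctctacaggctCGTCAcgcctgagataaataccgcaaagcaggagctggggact
Ano3, chr2:110950245-110950494, minus strand: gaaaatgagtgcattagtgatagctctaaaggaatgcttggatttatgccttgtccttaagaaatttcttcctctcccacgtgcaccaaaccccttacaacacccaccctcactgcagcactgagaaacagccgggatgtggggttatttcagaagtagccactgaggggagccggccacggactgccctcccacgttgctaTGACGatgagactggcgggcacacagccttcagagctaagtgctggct
The full CRE (TGACGTCA, which contains the core) was in 0 of the 9 promoters of these genes and in 1.55% of all 32851 promoters of the same length. The core was found 2 times before Tac1, 43 and 197 bases before the start. It was found 1 time in the Ano3 promoter shown, 48 bases before the start, and not in the other promoter of Ano3. Of all promoters, 17.8% hold the core. The GC box was in 5 of the 9 promoters, where 32.7% of all promoters hold it: 2 times before Drd2, 56 and 93 bases from the start, and 1 time each before Tac1, Rgs9, 1 of the 2 promoters of Pde10a and the Drd1 promoter not shown. The Drd1 promoter shown held none of these motifs, nor the TATA box TATAAA, which 12.4% of all promoters hold. These are matches of letters in a window and are not evidence of binding.

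In cerebrum at P75, mutants and wild types were compared 47 days after tamoxifen. The receptors of the indirect pathway, Drd2 and Adora2a, fell to about 0.544 and 0.501 of the wild type level, and Rgs9 fell to 0.691. The D1 receptor gene and both peptide precursors were not called. Of the 8 genes tested, 3 were called lower and 0 higher, against 6.62% called lower among all 17523 genes. Values did not overlap between the groups for the same 3, against 4.61% of all genes. At an unadjusted p under 0.05 it was 5 of 8, where 14.2% of all genes were lower. All 8 had a negative log2 fold change, with a median of -0.36 against 0.003 over all genes. In bulk tissue, fewer striatal neurons and less RNA per neuron cannot be told apart.

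Drd2 (chromosome 9, 49340627 to 49408177, mm10) had 36.9, 43.0, 43.6 and 40.2 CPM in wild types and 20.7, 19.7, 27.3 and 28 CPM in mutants. Every mutant lay below every wild type, with mutant replicates 1 and 2 lowest. Its log2 fold change was -0.88 ± 0.12 (adjusted p = 0.000352). Adora2a (chromosome 10, 75316877 to 75334784) had 45.4, 47.9, 54.4 and 53.1 CPM in wild types and 21.0, 18.7, 36.6 and 31.8 CPM in mutants. The groups were again separate, and the same 2 mutants were lowest. Its log2 fold change was -0.996 ± 0.17 (adjusted p = 0.00184). Both calls held under each of the alternatives run, including each library left out in turn.

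Drd1 (chromosome 13, 54051183 to 54055705), the receptor of the direct pathway, had 40.9, 40.6, 41.2 and 40.9 CPM in wild types and 34.8, 31.9, 41.4 and 49.9 CPM in mutants. The mutants lay on both sides of a very narrow wild type range, replicates 1 and 2 below and 3 and 4 above. The log2 fold change was -0.15 ± 0.12 (95% interval -0.41 to 0.11, adjusted p = 0.447), an interval that does not overlap that of Drd2 (-1.14 to -0.61).

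The receptors were also compared within each library, since a ratio of counts does not depend on the scaling of the library. The log2 ratio of Drd1 to Drd2 was 0.15, -0.08, -0.08 and 0.02 in wild types and 0.75, 0.69, 0.60 and 0.83 in mutants at P75. All 4 mutants lay above all 4 wild types, although their striatal sums ran from 599 to 983 CPM. The means were 0.72 ± 0.10 and 0.0015 ± 0.11 (SD, n = 4 each), a difference of 0.72. The exact permutation test gave p = 0.0286, the smallest that 4 against 4 allows, and 0.171 after Benjamini-Hochberg adjustment over the 6 ratio tests (2 ratios in 3 comparisons), so it did not pass after adjustment. All tests were two-sided. Further ratios were chosen after the data were seen and carry no test. Adora2a to Drd1 was -0.58 ± 0.28 in mutants and 0.29 ± 0.12 in wild types, with no overlap, while Adora2a to Drd2 was 0.14 ± 0.22 and 0.30 ± 0.10, with overlap.

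**Figure D2:**
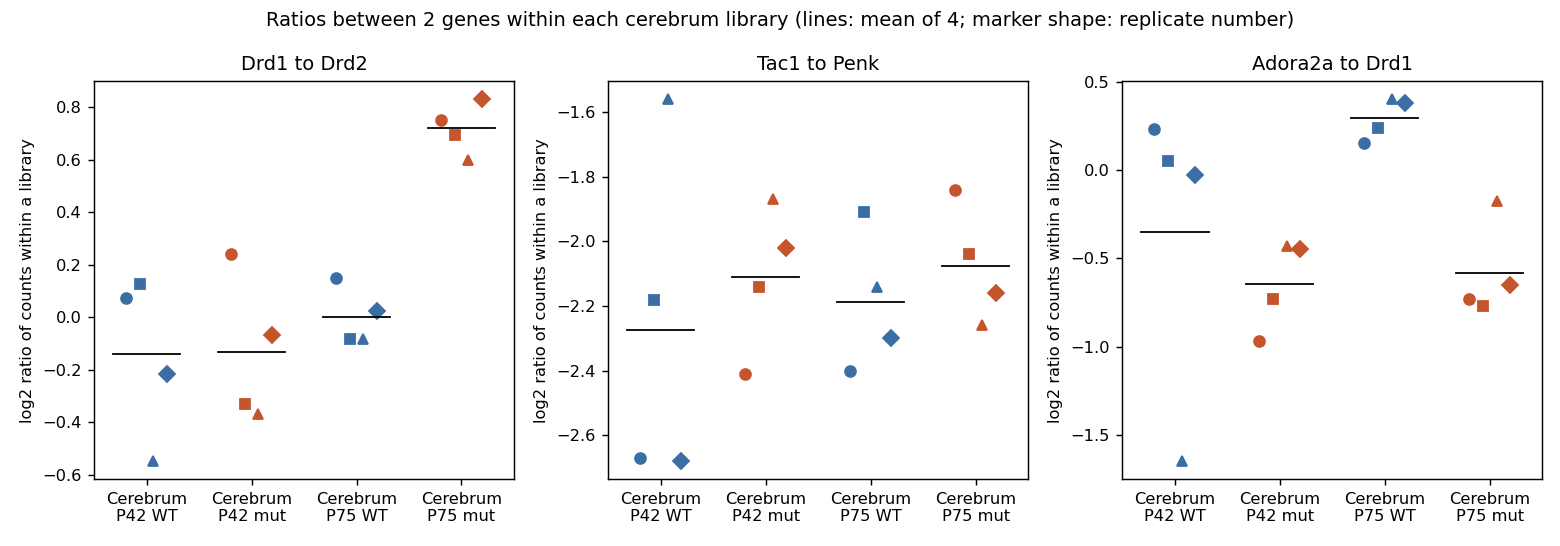
Points give the log2 ratio of counts of 2 genes within each cerebrum library (blue, wild type; orange, mutant; marker shape, replicate number; lines, mean of 4 libraries). At P75 Drd1 to Drd2 is 0.60 to 0.83 in mutants and -0.08 to 0.15 in wild types, whereas Tac1 to Penk overlaps between genotypes at both ages.

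The precursor genes of both pathways were not called, although Penk passed with no filter on low counts (adjusted p = 0.0252). Penk (chromosome 4, 4133531 to 4138819), which encodes the enkephalin precursor of the indirect pathway, had 206, 172, 214 and 218 CPM in wild types and 142, 136, 233 and 218 CPM in mutants. Mutant replicates 1 and 2 lay below all wild types and the other 2 within or above them, and the log2 fold change was -0.25 ± 0.16 (95% interval -0.58 to 0.08, adjusted p = 0.312). Tac1 (chromosome 6, 7554879 to 7565834), the substance P precursor gene of the direct pathway, had 39.0, 45.7, 48.6 and 44.2 CPM in wild types and 39.7, 32.9, 48.7 and 48.7 CPM in mutants. The groups overlapped, with a log2 fold change of -0.17 ± 0.12 (95% interval -0.43 to 0.10, adjusted p = 0.408). The log2 ratio of Tac1 to Penk differed by 0.11 between the genotypes (exact permutation p = 0.429, adjusted p = 0.943). Penk counts were higher relative to Drd2 in mutants, with a log2 ratio of 2.90 ± 0.15 against 2.30 ± 0.22, a value chosen after the data were seen and not tested. Tac1 relative to Drd1 was 0.11 ± 0.12 and 0.11 ± 0.13.

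Among the signalling genes shared by both pathways, Rgs9 (chromosome 11, 109225355 to 109298129) had 73.0, 72.5, 75 and 77.6 CPM in wild types and 40.2, 45.7, 70.9 and 63.8 CPM in mutants. All mutants lay below the wild types, replicate 3 only just, and the log2 fold change was -0.53 ± 0.15 (adjusted p = 0.0261). This call rested on narrow margins: the adjusted p was 0.0662 without mutant replicate 1, 0.0729 without mutant replicate 2, and 0.0503, 0.0535 and 0.0712 without wild type replicates 1, 3 and 4. Pde10a (chromosome 17, 8525372 to 8986648) had 230, 304, 256 and 284 CPM in wild types and 188, 179, 270 and 260 CPM in mutants. Its groups overlapped, with a log2 fold change of -0.36 ± 0.14 (adjusted p = 0.0909). Ppp1r1b (chromosome 11, 98348404 to 98357796) had 229, 189, 266 and 237 CPM in wild types and 155, 136, 255 and 221 CPM in mutants, with overlapping groups and a log2 fold change of -0.37 ± 0.17 (adjusted p = 0.159). For both genes mutant replicates 1 and 2 lay below every wild type and replicates 3 and 4 did not. Pde10a reached an adjusted p of 0.0355 without mutant replicate 3 and 0.043 without mutant replicate 4, and Ppp1r1b reached 0.0295 without mutant replicate 3, which brought the number called to 5. With no filter on low counts both passed (adjusted p = 0.000237 and 0.000211).

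The mutants at P75 thus split into replicates 1 and 2, with striatal sums of 641 and 599 CPM, and replicates 3 and 4, with 983 and 921 CPM. Microglia markers moved with that split. Of 8 markers, 5 were called higher in mutants (7.66% of all genes were), none was at 0, and their sum was 639 and 666 CPM in mutant replicates 1 and 2, 392 and 364 CPM in replicates 3 and 4, and 284 to 311 CPM in wild types. Of 12 markers of cortical excitatory neurons, 7 were called lower, where 6.62% of all genes were. The number was 4 without mutant replicate 1 or wild type replicate 4. None was at 0, and their sum was 1150 to 1460 CPM in mutants against 1510 to 1690 CPM in wild types. Lower calls were thus not confined to striatal genes. The part of the microglia and cortical markers in the striatal values was not tested. The other marker lists are set against the same 6.62% lower and 7.66% higher among all genes. Called genes were 1 lower and 1 higher of 8 for striatal interneurons, 2 higher of 18 for deep regions and 1 lower of 5 for cerebellar neurons. They were 1 higher of 8 for astrocytes, 1 higher of 7 for choroid plexus, 0 of 6 for hippocampus and 0 of 8 for oligodendrocytes.

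Ano3 (chromosome 2, 110655201 to 110950923) had 118, 178, 122 and 128 CPM in wild types and 51.2, 65.5, 61.7 and 61.1 CPM in mutants at P75, the values for which it was chosen. Its mutants lay close together, and replicates 1 and 2 did not stand below 3 and 4 as they did for the other genes. The log2 fold change was -1.29 ± 0.13, given as a description of that choice.

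**Figure D3:**
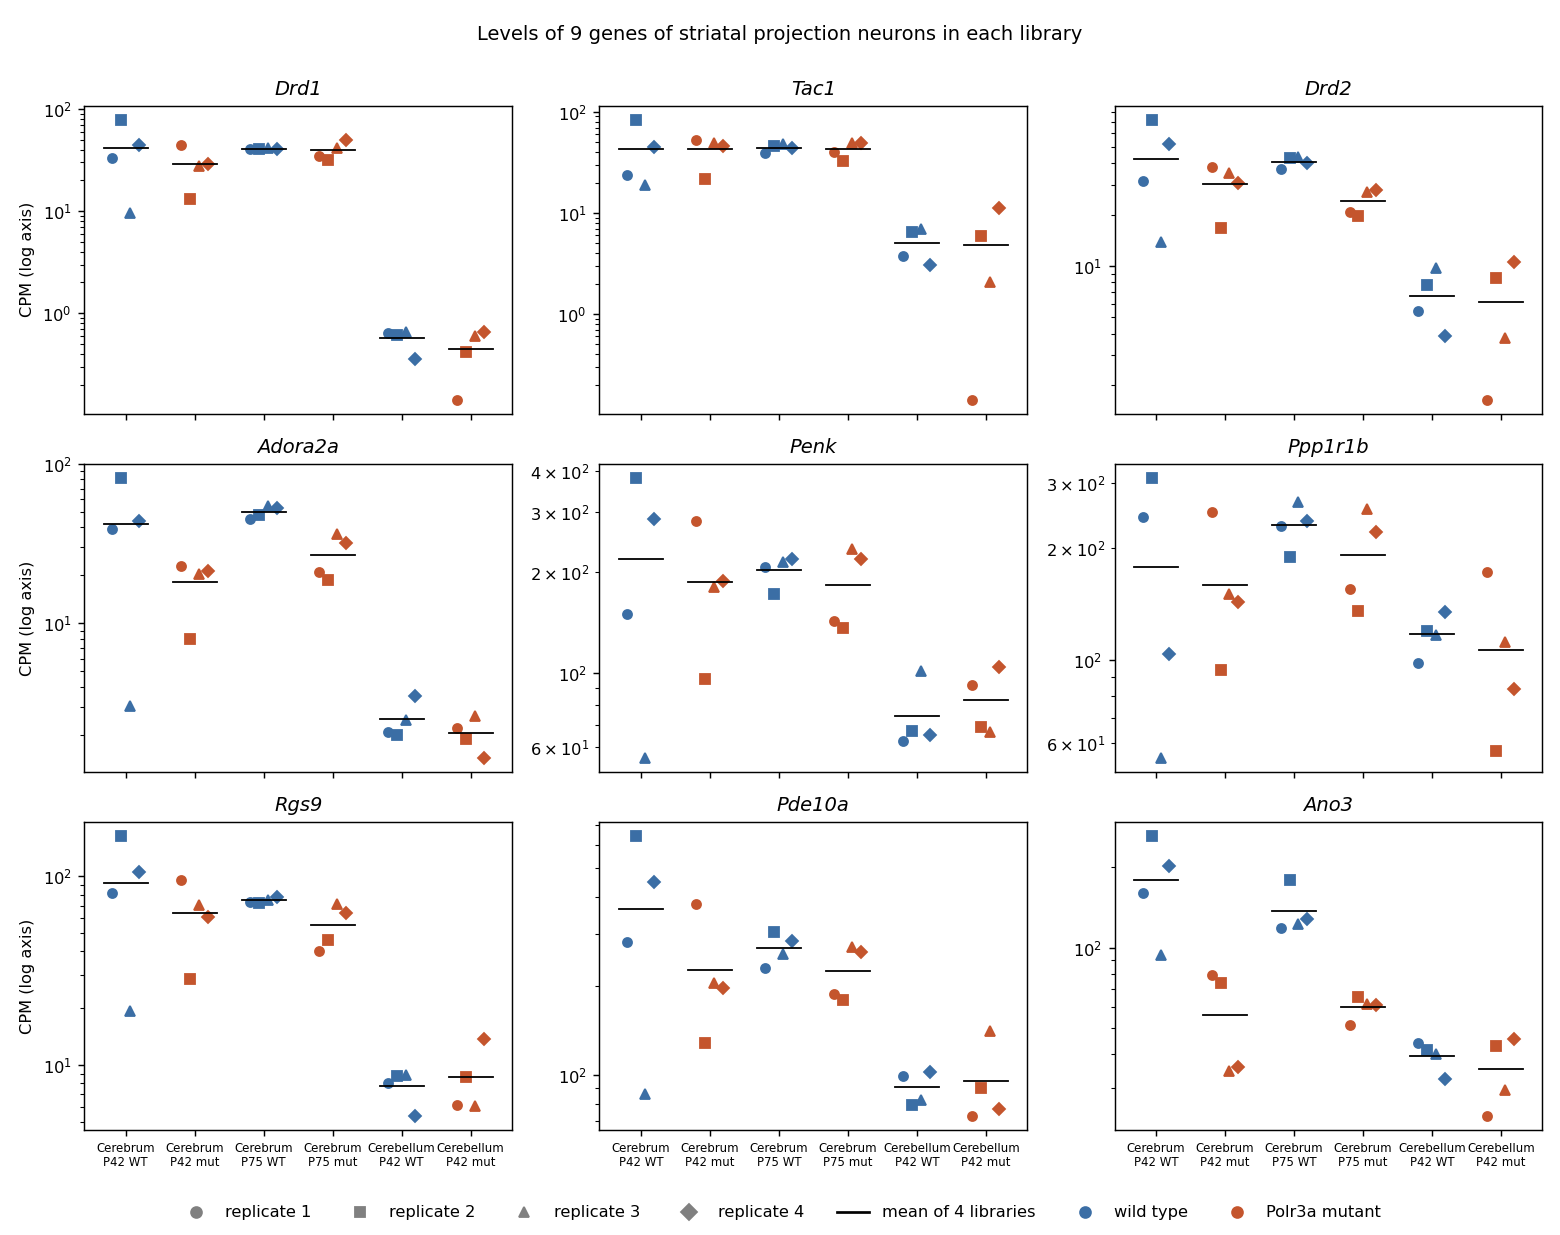
Points give CPM on log axes in each of the 24 libraries for the 9 genes (blue, wild type; orange, mutant; marker shape, replicate number; line, mean of 4). Drd2 at P75 is 36.9 to 43.6 CPM in wild types and 19.7 to 28 CPM in mutants, Drd1 overlaps, and P42 wild types spread far more widely than P75 wild types.

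Other genes of the striatum were then examined in the same P75 comparison. Of 18 further genes expressed in both classes of projection neuron, 12 were called lower, where 6.62% of all genes were, and all 18 had a negative log2 fold change, with a median of -0.45 against 0.003 over all genes. The same share and median of all genes apply to each list that follows. Leaving out single libraries gave 9 to 14 called lower. Scn4b, a sodium channel beta subunit gene, fell by 0.90 ± 0.11 on the log2 scale (adjusted p = 0.000106), Gng7, the G protein gamma subunit gene of the striatum, by 0.67 ± 0.11 (adjusted p = 0.000944) and Rasd2, a small GTPase gene, by 0.65 ± 0.09 (adjusted p = 0.00039). Foxp1, a transcription factor gene in the same list, had -0.09 ± 0.09 (adjusted p = 0.578).

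The lists of genes of a single pathway are short, and no difference between lists was tested. Of 7 further direct pathway genes, 1 was called lower, against 6.62% of all genes, and the median was -0.19. That gene was Chrm4, which encodes the M4 muscarinic receptor, with 16.6 ± 2.51 against 24.9 ± 0.378 CPM and a log2 difference of -0.69 ± 0.12 (adjusted p = 0.00146). Pdyn, the dynorphin precursor gene, had -0.19 ± 0.08 (adjusted p = 0.140), Slc35d3, a transporter gene of direct pathway neurons, -0.39 ± 0.16 (adjusted p = 0.106), and Isl1, a transcription factor gene, -0.42 ± 0.25 (adjusted p = 0.284). Of 4 further indirect pathway genes, 1 was called lower, against the same 6.62%, and the median was -0.28. That gene was Gpr6, an orphan receptor gene, with 6.19 ± 2.24 against 13.5 ± 0.187 CPM and a log2 difference of -1.22 ± 0.21 (adjusted p = 0.00165). Grik3 had -0.27 ± 0.09 (adjusted p = 0.0646), Sp9 -0.28 ± 0.14 (adjusted p = 0.184) and Ptprm -0.03 ± 0.08 (adjusted p = 0.877), whose sign turned with scaling by library size alone.

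Of 23 genes of dopamine and cAMP signalling tested, 6 were called lower (6.62% of all genes were) and 0 higher, with a median of -0.18. Pde1a, a calcium-dependent phosphodiesterase gene, had -0.65 ± 0.12 (adjusted p = 0.00285), Prkar2b, a regulatory subunit gene of protein kinase A, -0.43 ± 0.09 (adjusted p = 0.00468), Gnai1, an inhibitory G protein gene, -0.31 ± 0.07 (adjusted p = 0.00797), and Ppp3ca, the calcineurin gene, -0.35 ± 0.09 (adjusted p = 0.0187). The number was 3 without mutant replicate 1 or 2 or wild type replicate 4. Of 6 genes for relatives of RGS9 and for partners of this family, 4 were called lower (6.62% of all genes were), with a median of -0.31. Among the partners were Gnb5, the beta subunit that RGS9 needs for stability (-0.34 ± 0.08, adjusted p = 0.0107), and Rgs7bp (-0.35 ± 0.10, adjusted p = 0.0292). The relatives called were Rgs11 (-0.62 ± 0.15, adjusted p = 0.0118) and Rgs7 (-0.28 ± 0.09, adjusted p = 0.0396). The number was 2 without mutant replicate 1, 2 or 3 or wild type replicate 4.

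Of 14 genes of opioid and tachykinin signalling, 4 were called lower (6.62% of all genes were) and 0 higher, with a median of -0.23. They were the prohormone convertase genes Pcsk2 (-0.40 ± 0.07, adjusted p = 0.00257) and Pcsk1 (-0.50 ± 0.11, adjusted p = 0.00649), the delta opioid receptor gene Oprd1 (-0.51 ± 0.13, adjusted p = 0.0218) and the peptide amidating enzyme gene Pam (-0.24 ± 0.07, adjusted p = 0.0289). The number was 2 without mutant replicate 1 or wild type replicate 4. Of 8 other anoctamin genes tested, Ano2 was called lower (-0.79 ± 0.23, adjusted p = 0.0332) and Ano6 higher (0.44 ± 0.11, adjusted p = 0.0141). The call of Ano2 was lost without mutant replicate 1, 2 or 4 or wild type replicate 2 or 4, and that of Ano6 without mutant replicate 1. Ano7 (1.13 ± 0.41, adjusted p = 0.0776) and Ano4 (-0.14 ± 0.10, adjusted p = 0.351) did not pass, and the median of the 8 was -0.11.

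**Figure D4:**
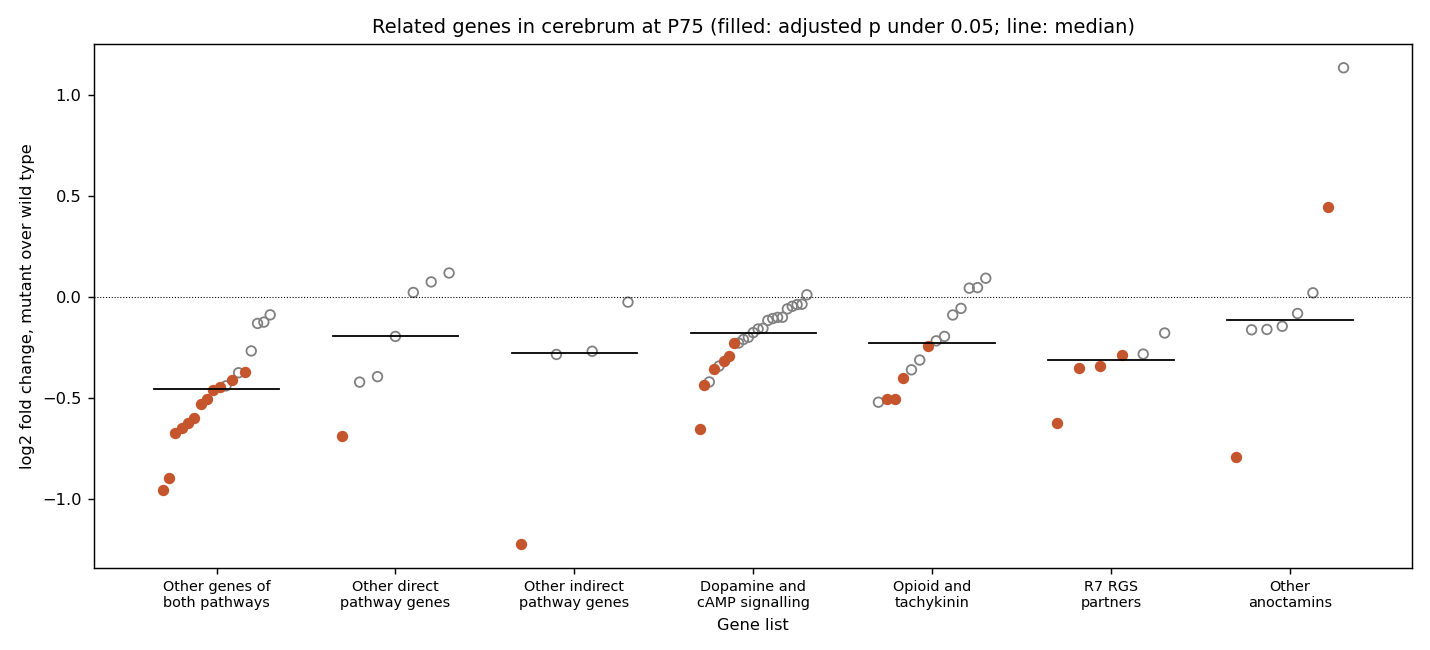
Each circle is a gene of a related list, placed by its log2 fold change (mutant over wild type) in cerebrum at P75; filled circles had an adjusted p under 0.05 and lines give the list medians. The list of genes of both pathways lies wholly below 0 with 12 of 18 filled, and the anoctamin list has 1 filled gene on each side.

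Scaling by library size alone moved the median of all genes at P75 from 0.003 to 0.11 on the log2 scale, and the share of higher genes among those called from 53.6% to 80.9%. The 8 striatal genes kept a negative sign under that scaling, with Drd2 at -0.77 ± 0.12 and Adora2a at -0.89 ± 0.17, both still called, and Rgs9 at -0.43 ± 0.14 (adjusted p = 0.0508). Of the 18 genes of both pathways 11 were then called lower, where 3.12% of all genes were. That share also applies to the lists that follow. The numbers became 4 of 23 for dopamine and cAMP genes and 2 of 14 for opioid and tachykinin genes. They became 2 of 6 for the relatives and partners of RGS9, 4 of 12 for the cortical markers and 0 of 8 for the anoctamins.

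In cerebrum at P42, 14 days after tamoxifen, 0 of the 9 genes were called, where 0.0165% of all 18205 genes were (3 genes); at an unadjusted p under 0.05 it was 1 of the 9, Ano3, and 12.6% of all genes. DESeq2 called 1 of the 9, also Ano3. The median log2 fold change of the 9 was -0.47 against 0.01 over all genes, and 8 of 9 were negative. For the 8 genes chosen by name, wild types alone spanned more than the difference between the genotypes. Adora2a had 39.1, 81.7, 3.01 and 43.9 CPM in wild types and 23.0, 7.96, 20.3 and 21.4 CPM in mutants. Wild type replicate 3 lay below all mutants and the other wild types above them, and the log2 fold change was -1.11 ± 0.74 (95% interval -2.78 to 0.56, adjusted p = 0.518). Drd1 had 33.3, 78.7, 9.51 and 44.7 CPM in wild types and 44.9, 13.2, 27.4 and 29.2 CPM in mutants. Its extremes were both wild types, replicate 2 and replicate 3, and the log2 fold change was -0.47 ± 0.59 (95% interval -1.80 to 0.86, adjusted p = 0.726). Drd2 had 31.7, 72.2, 13.9 and 52.0 CPM in wild types and 38.0, 16.7, 35.3 and 30.6 CPM in mutants, with the same 2 wild types at the extremes and a log2 fold change of -0.43 ± 0.46 (95% interval -1.47 to 0.61, adjusted p = 0.680).

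The other 5 genes chosen by name were as uncertain at P42. Pde10a had -0.60 ± 0.58 (adjusted p = 0.647), Rgs9 -0.51 ± 0.60 (adjusted p = 0.705), Ppp1r1b -0.25 ± 0.52 (adjusted p = 0.841), Penk -0.10 ± 0.56 (adjusted p = 0.941) and Tac1 0.09 ± 0.47 (adjusted p = 0.939). Each 95% interval contained 0. With wild type replicates 2 and 3 both left out, a choice made after the data were seen, 0 of the 9 were called, and Adora2a had -1.32 ± 0.36 (adjusted p = 0.649). With mutant replicates 3 and 4 left out, 0 were called. Within libraries, the log2 ratio of Drd1 to Drd2 was -0.13 ± 0.28 in mutants and -0.14 ± 0.31 in wild types (exact permutation p = 0.971, adjusted p = 0.971), and that of Tac1 to Penk -2.11 ± 0.23 and -2.27 ± 0.53 (exact permutation p = 0.629, adjusted p = 0.943). In the related lists the P42 medians were -0.35 for the 18 genes of both pathways, -0.06 for the direct and -0.09 for the indirect pathway genes. They were -0.21 for dopamine and cAMP signalling and 0.17 for opioid and tachykinin signalling. For the relatives and partners of RGS9 the median was -0.21, and for the anoctamins 0.20. Gpr6 had -0.59 ± 0.75 (adjusted p = 0.730) and Chrm4 -0.72 ± 0.34 (adjusted p = 0.406).

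Ano3 stood apart at P42. The rule for its choice names only P75, but earlier results of these data were known when it was chosen. It had 160, 260, 93.6 and 201 CPM in wild types and 79.2, 73.7, 34.6 and 35.7 CPM in mutants. Every mutant lay below every wild type, which held for 1.88% of all genes, and mutant replicates 3 and 4 were lowest. The log2 fold change was -1.67 ± 0.37 (95% interval -2.51 to -0.83, unadjusted p = 0.00139, adjusted p = 0.275), so it missed the edgeR threshold; DESeq2 gave an adjusted p of 0.000933. Mutant replicates 3 and 4 are also those with the highest deep region and lowest cortical sums. The deep region list was chosen with earlier results of these data known, so its counts here only describe that choice. Markers of deep regions had positive log2 fold changes for 18 of 18 genes, with groups that did not overlap for 6 of them (4.78% of all genes), with Oxt at 0 counts in wild type replicates 1 and 2, Hcrt in those and in mutant replicate 1, and Slc6a4 in wild type replicate 2. Their part in the values of Ano3 was not tested. Without both of these mutants the log2 fold change of Ano3 was -1.16 (adjusted p = 1). Relative to Pde10a, Ano3 had a log2 ratio of -2.25, -0.80, -2.56 and -2.46 in mutants and -0.81, -1.30, 0.12 and -1.16 in wild types. Mutant replicate 2 lay among the wild types by that ratio and the other 3 below them all.

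The genotype effects at the 2 ages were compared directly, as an interaction over the 16 cerebrum libraries. Of the 8 genes tested, 0 were called by edgeR or DESeq2, with adjusted p from 0.734 (Drd2) to 0.994 (Rgs9), where 1.36% of all 19273 genes were called, and 0 had an unadjusted p under 0.05, where 14.1% of all genes did. For Drd2 the effect at P75 minus that at P42 was -0.44 ± 0.49 (95% interval -1.48 to 0.61), and for Adora2a it was 0.12 ± 0.78 (-1.52 to 1.77). The fall of Drd2 and Adora2a at P75 was therefore not shown to differ from the effect at P42. For Ano3 the difference was 0.38 ± 0.41, given without a test. In males alone, the sex of all P75 libraries, Tac1 was called (-1.39, adjusted p = 0.017), with 2 male wild types and 2 male mutants at P42. Drd1, Adora2a and Pde10a, the tested genes with a positive difference over all 16 libraries, turned negative there. They had -0.87, -0.99 and -0.99 and were not called. The male wild types at P42 include replicate 3, which has the lowest striatal sum.

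**Figure D5:**
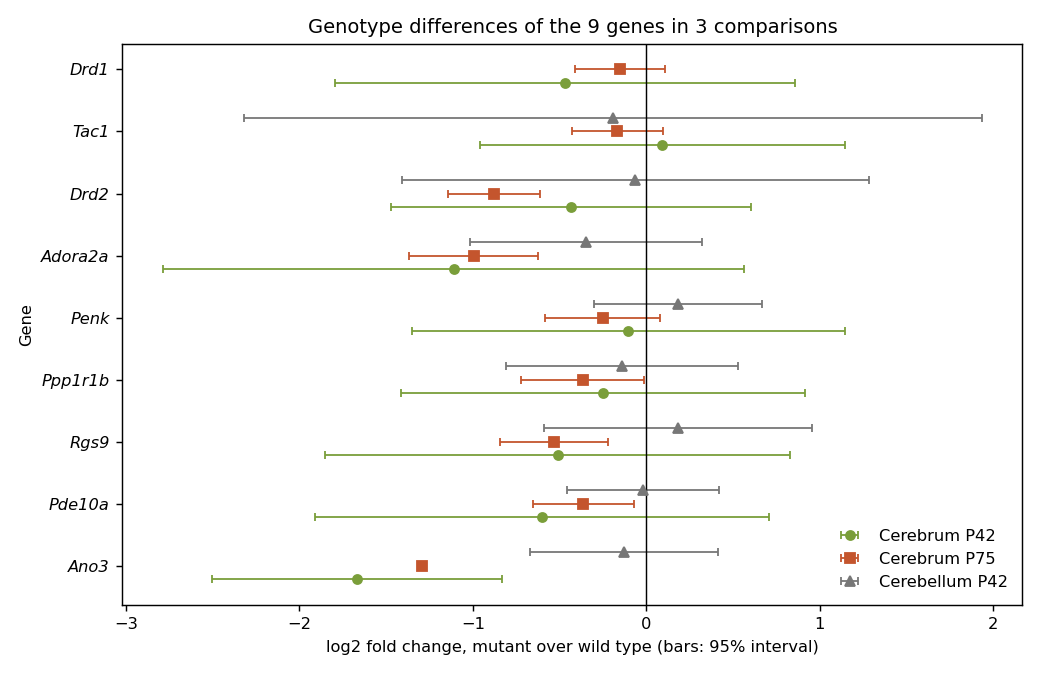
Log2 fold changes (mutant over wild type) of the 9 genes in 3 comparisons, with 95% intervals; Ano3 at P75 is drawn without an interval because it was chosen from that comparison, and Drd1 was not tested in cerebellum. At P75 the unadjusted intervals of 5 of the 8 tested genes lie below 0, of which Drd2, Adora2a and Rgs9 passed after adjustment, and the P42 intervals of all genes but Ano3 contain 0.

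In cerebellum, which has no striatum, 8 of the 9 genes passed the filter on low counts and 0 were called, with adjusted p from 0.976 to 1, where 0.0114% of all 17616 genes were called (2 genes). None of the 8 had an unadjusted p under 0.05, as 4.65% of all genes did, and DESeq2 called none of them. Drd1 was below the filter, with 9, 9, 9 and 6 counts in wild types and 2, 8, 11 and 15 counts in mutants. Ano3 had 44.1, 41.6, 40.0 and 32.3 CPM in wild types and 23.5, 42.8, 29.5 and 45.7 CPM in mutants, with overlapping groups and a log2 fold change of -0.13 ± 0.24 (95% interval -0.67 to 0.41, adjusted p = 0.992). Penk, the most abundant of the peptide genes there, had 62.7, 67.2, 101 and 65.4 CPM in wild types and 91.7, 68.8, 66.7 and 104 CPM in mutants, which overlapped (0.19 ± 0.21, 95% interval -0.30 to 0.67, adjusted p = 0.984). The interval of Drd2 (-1.41 to 1.28) is too wide to tell a change of the size seen in cerebrum at P75 from none.

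The 9 genes differed in how closely they followed one another between libraries of a group. Over the 16 cerebrum libraries, each was correlated with the mean of the other genes chosen by name, as deviations of log2 CPM from the group mean. Rgs9 had r = 0.990, Drd1 0.988, Drd2 0.977, Penk 0.974 and Pde10a 0.971. Adora2a had 0.954, Tac1 0.878, Ppp1r1b 0.83 and Ano3 0.539. For Ano3, r was 0.574 over the P42 libraries alone and 0.192 over the P75 libraries alone. These are descriptions, since the genes of a library share its depth and dissection, and most of the spread is that of the P42 wild types. The SD of log2 CPM of Drd1 was 1.29 in P42 wild types and 0.0143 in P75 wild types, where the median gene had 0.32 and 0.191. Among mutants at P75 it was 0.303, against a median gene of 0.187.

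The genes whose deviations were most like the mean of the 8 genes chosen by name included Cd4 (r = 0.971), Sh3rf2 (0.971), Gpr6 (0.968), Adcy5 (0.968), Slc35d3 (0.964), Gng7 (0.961), Pdyn (0.960), Rasd2 (0.958) and Pde1b (0.948), among 12369 genes with at least 5 CPM on average. Over the 8 P75 libraries alone r was 0.246 for Pdyn and 0.790 for Sh3rf2, against 0.992 and 0.982 over the 8 P42 libraries. All of these genes but Cd4 and Sh3rf2 were already on the lists of other striatal genes. Cd4, best known as a T cell co-receptor gene, had r = 0.979 over the P42 libraries and 0.957 over the P75 libraries, a mean of 5.21 CPM, and log2 fold changes of -1.04 ± 0.29 at P75 and -1.06 ± 0.80 at P42. Adcy5, the main adenylyl cyclase gene of the striatum, averaged 285 ± 43.6 in mutants against 384 ± 10.7 CPM at P75, where its log2 fold change was -0.53 ± 0.10 (adjusted p = 0.00271), and -0.14 ± 0.28 at P42.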

How the data were processed

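PolyA-selected RNA was sequenced from 24 mouse cerebrum and cerebellum libraries. The tables the authors deposited hold whole-number read counts per gene, with mm10 coordinates; HISAT2, DESeq2 and mm10 are named, without versions, per the submitters' processing notes, and the read counter, like the annotation release, is not given in the sources used here. If the counting ignored strand, which is likewise not given, reads of antisense genes are included. Totals were 13832721 to 23175864 counts per library, and no pair of libraries was identical.

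Levels are CPM of the library total. Per tissue and age, genes were kept by filterByExpr, scaled by TMM and tested with edgeR 4.0.16 (quasi-likelihood, R 4.3.3, two-sided), with a sex term except at P75. Benjamini-Hochberg adjustment ran over all genes tested, and genes with adjusted p under 0.05 were called; intervals are 95%. Ratios used log2 of counts plus 0.5 and exact permutation tests over 70 splits. Simulated counts held 17311 genes at P75 and 17765 genes in cerebrum at P42. Of genes changed by 1 log2 unit, 99 of 100 were recovered at P75 and 71 of 100 at P42. Each of these simulations also gave 13 false calls. The P42 share cannot be applied to the striatal genes chosen by name, whose levels spread more widely there. Their SD of log2 CPM in wild type cerebrum at P42 ran from 0.974 (Tac1) to 2.09 (Adora2a), against 0.32 for the median gene.

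The 9 genes and the gene lists were chosen with earlier results of these data known. Named were the 9 genes, up to 4 genes of each of 7 related lists with the smallest p at P75, and the 10 genes most like the 8 chosen by name; Foxp1 was named after its value was seen, and 1 gene that the rule names is not reported here. Of the 164 list entries, 1 symbol was not found. The other lists (striatal interneurons, cortex, hippocampus, deep regions, cerebellar neurons, microglia, oligodendrocytes, astrocytes, choroid plexus) served as context, and the authors' own tables of comparisons were not used. Alternatives were DESeq2 1.42.0, relative log expression or library size scaling, no filter, a filter of 1 CPM in 4 libraries, a replicate block, no sex term, males only, 5 counts added in ratios, and libraries left out.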

Additional observations from a re-analysis of the deposited data

Results flagged for a closer look

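Of 66 sets of 4 library values tested, 3 held a library far from its group by Dixon's criterion, where chance gives about 1 in 20. Ano3 in wild type cerebrum at P75 had 178 CPM in replicate 2, while the other 3 libraries had 118 to 128 CPM. Penk in wild type cerebellum had 101 CPM in replicate 3, while the others had 62.7 to 67.2 CPM. Drd1 in wild type cerebellum had 0.357 CPM in replicate 4, while the others had 0.614 to 0.651 CPM, a spread of 6 to 9 counts.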

How the results depend on the processing

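In cerebrum at P75, Drd2 and Adora2a were called under every alternative, and none of the 126 values of the 9 genes reversed (110 kept their direction and side of the threshold). The number of the 8 genes called ran from 2 to 5 with single libraries left out and was 6 with no filter. With single libraries left out, genes called ran from 1356 (without mutant replicate 1) to 2783, and were 1634 without wild type replicate 4. Other settings called more genes. Higher and lower calls were 1579 and 1505 with DESeq2, 1776 and 1465 with no filter, and 2313 and 547 with library size scaling. At P42 genes called were 233 with DESeq2, 1312 with no filter, and 0 with library size scaling, the stricter filter, no sex term, without both mutants 3 and 4, or without wild types 2 and 3, and 0 to 11 with single libraries left out; of the 9 genes, DESeq2 called 1 and no filter 3. In cerebellum they were 41 with DESeq2, 153 with no filter, 1 with no sex term and 1 to 2 with single libraries left out. For the age interaction they were 670 with DESeq2, 1176 with no filter, 132 without both mutants, 135 in males only (1 of the 8 genes) and 124 to 1169 with single libraries left out. The cause of these moves was not tested.

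The replicate number as a block was an added term only, since it was not shown to pair the libraries. Same-number correlations were 0.0258 to 0.141 at P75, and 0.0124 to 0.248 in cerebrum and -0.34 to 0.0844 in cerebellum at P42. At P75 every library was closest to its own number, so whether the numbers pair the libraries there is not settled. With the block, genes called were 8 in cerebrum at P42, 1 in cerebellum and 2658 between tissues (6 of the 9 genes, without Pde10a, adjusted p = 0.0587). At P75 the block gave 1693 genes higher and 1844 lower, against 1342 and 1160 without it. Of the 8 genes, 6 were then called at P75, with Penk (adjusted p = 0.048), Ppp1r1b (0.00567) and Pde10a (0.0226) added. Under the block Ppp1r1b (0.019) and Rgs11 (0.0021) reversed at P42, Drd2 (0.0404) in cerebellum and Adora2a (-0.19) in the interaction.

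Log2 fold changes that reversed otherwise were all small or uncertain. Library size scaling gave Pdyn 0.0073 and Rgs11 0.027 at P42, Ptprm 0.0804 at P75 and Rgs9 0.0077 in the interaction. No sex term gave Tac1 -0.081 at P42, Pde10a 0.076 in cerebellum, and Penk 0.048 and Rgs9 0.076 in the interaction. Without both mutants 3 and 4, P42 values were Penk 0.13, Pcsk2 0.14, Rgs11 0.11 and Ano4 -0.0091, and interaction values Pde10a -0.12 and Ano3 -0.13. Without wild types 2 and 3, Gnb5 was 0.0073 and Rgs11 0.062. In males only, interaction values were Drd1 -0.87, Adora2a -0.99, Pde10a -0.99 and Ano3 -0.10. With 5 counts added, the cerebellar log2 ratio of Drd1 to Drd2 differed by 0.014.

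At P42, with single libraries left out, values that kept their sign but moved widely were Adora2a (-1.72 to -0.63), Rgs9 (-1.08 to -0.030), Pde10a (-1.17 to -0.16), Drd2 (-0.89 to -0.020), Gpr6 (-1.25 to -0.0050) and Chrm4 (-1.13 to -0.54). Between tissues Adora2a ranged over 2.52 to 4.30, and the number of the 9 genes called over 6 to 9. Ranges with single libraries left out, for results that reversed, were in cerebrum at P42: Adcy5 -0.40 to 0.085, Drd1 -1.02 to 0.015, Gnb5 -0.19 to 0.0795, Pde1b -0.43 to 0.12, Pdyn -0.45 to 0.24, Penk -0.65 to 0.38, Ppp1r1b -0.67 to 0.27, Rasd2 -0.75 to 0.034, Rgs11 -0.23 to 0.14, Scn4b -0.43 to 0.19, Sp9 -0.13 to 0.35, Tac1 -0.28 to 0.55. In cerebellum they were Ano3 -0.34 to 0.14, Drd2 -0.61 to 0.51, Pde10a -0.18 to 0.084, Ppp1r1b -0.71 to 0.13, Rgs9 -0.20 to 0.45, Tac1 -1.15 to 0.57. In the interaction they were Adora2a -0.38 to 0.69, Drd1 -0.18 to 0.83, Pde10a -0.23 to 0.78, Penk -0.65 to 0.37, Ppp1r1b -0.64 to 0.28, Rgs9 -0.52 to 0.52, Tac1 -0.73 to 0.088. Ptprm at P75 ranged over -0.077 to 0.0023, and Ppp1r1b between tissues over -0.12 to 1.02. The difference in the log2 ratio of Drd1 to Drd2 ranged over -0.13 to 0.10 in cerebrum at P42 and -0.38 to 0.17 in cerebellum, and that of Tac1 to Penk in cerebellum over -1.92 to 0.0102. Depth limits Drd1 in cerebellum, at 2 to 15 counts.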
